A study of Homo sapiens with 2 samples.

Results

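Collagens are the main structural proteins of the extracellular matrix. Their chains carry glycine in a regularly repeating triplet of residues, wind into triple helices in the endoplasmic reticulum and are secreted. Fibrillar collagens (types I, II, III, V, XI, XXIV and XXVII) build the banded fibrils of connective tissue. Type IV collagen forms the sheet of basement membranes, and the remaining types form beaded filaments, anchoring fibrils and networks, decorate fibrils or span the cell membrane. In liver, stellate cells are the main source of fibrillar collagen, while tumour cells also transcribe some collagen genes.

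The collagen genes described here are the protein-coding genes whose symbol is COL, a type number, A and a chain number. They number 44 of the 58735 genes in the deposited count table, with 11 fibrillar, 6 basement membrane (type IV) and 27 other collagens. RNA was sequenced from 1 library of non-treated wildtype PLC8024 cells (MAEL WT) and 1 library of PLC8024 cells with MAEL knocked out by an sgRNA (MAEL KO). The cells are the liver cancer line PLC/PRF/5, also called Alexander cells. The knockout cells came from a protocol that sorted plasmid-transfected cells and seeded them as single clones, so that clone, culture and knockout cannot be told apart.

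The MAEL WT library held 19904136 counts and the MAEL KO library 20833332. The targeted gene, MAEL, had 1 and 0 counts, so that its transcript could not check the labels. With 1 library per group no difference has a replicate check, no test was made and no p-value is given. Log2 fold changes compare MAEL KO with MAEL WT (negative where MAEL KO is lower) after TMM scaling, with 1 added to the normalized counts. A gene was evaluated if either library held 10 or more of its counts, which left 17887 genes. The threshold is a log2 fold change beyond 2 in either direction. Intervals are exact 95% Clopper-Pearson bounds, taken from how a gene's counts split between the libraries, and cover counting error only.

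The labelled cell type was checked by marker genes. Of 7 hepatocyte markers all had at least 10 counts and were above 0, with SERPINA1 going from 729 to 2506 FPKM and ALB from 59 to 8550 counts. Of 9 fibroblast and stellate cell markers, PDGFRA, ACTA2 and FAP were at 0 counts in both libraries. The summed counts of these 9 genes were 166 in MAEL WT and 36 in MAEL KO, and PDGFRB gave 122 and 29 of them. Their part in the collagen values below was not tested.

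The coding structure, which uses no count, set the fibrillar collagens apart from the other classes by the length of their glycine repeat. In the longest coding transcript of each gene in GENCODE 29, the longest unbroken run of codon triplets that open with a glycine codon was 216 to 343 triplets in the fibrillar collagens. It was 38 to 66 in the type IV collagens and 23 to 113 in the others. Exons of exactly 54 bases, the repeat unit of fibrillar genes, made up 41.2% to 55.0% of the coding exons of fibrillar collagens and 2.13% to 5.66% of those of type IV collagens. In the other collagens the share was 0% to 43.8%, and COL9A2, COL9A3 and COL22A1, at the upper end, lay above COL1A1, the lowest fibrillar gene. COL26A1, at 23 triplets, had the shortest run of all, while COL6A1 and COL6A2 shared a run of 87. The exons below show this repeat in members from all 3 classes whose counts differed between the libraries. Capitals mark the glycine codons, and coding exons are counted from the start codon (GRCh38, plus strand for COL4A5 and COL6A2 and minus strand for COL24A1 and COL5A3).
COL24A1, coding exon 4, chr1:86115325-86115378: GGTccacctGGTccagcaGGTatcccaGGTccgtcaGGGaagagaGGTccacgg
COL5A3, coding exon 15, chr19:9996066-9996119: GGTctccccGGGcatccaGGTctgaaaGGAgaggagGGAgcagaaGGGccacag
COL4A5, coding exon 7, chrX:108571413-108571466: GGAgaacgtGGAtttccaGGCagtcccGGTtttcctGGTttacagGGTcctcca
COL6A2, coding exon 5, chr21:46115872-46115925: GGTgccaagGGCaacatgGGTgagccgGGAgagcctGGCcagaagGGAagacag

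**Figure D1:**
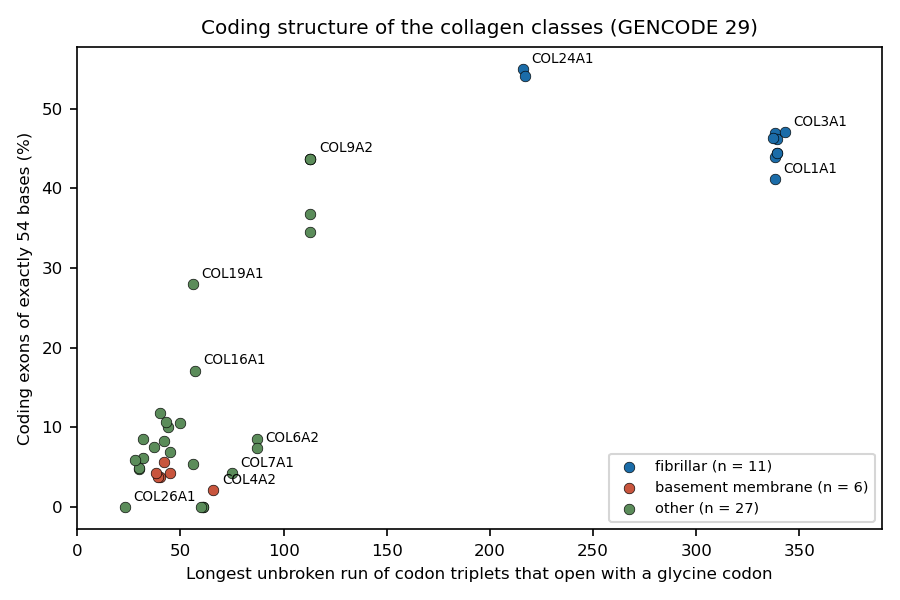
Each point is a collagen gene, with the longest unbroken run of triplets opening with a glycine codon on the horizontal axis and the share of coding exons of exactly 54 bases, in percent, on the vertical axis. The 11 fibrillar genes lie at 216 to 343 triplets, and the 6 type IV genes lie at or below 66.

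Of the 44 collagen genes, 20 had fewer than 10 counts in each library. Of these, 6 had no count at all, namely COL6A5, COL13A1, COL20A1, COL22A1, COL23A1 and COL25A1. A further 4 (COL1A2, COL4A3, COL6A6 and COL8A1) had at most 3 counts in either library, and 10 had more than that but fewer than 10. A count of 0 allows a level of up to 3 counts, which is 0.151 CPM in MAEL WT and 0.144 CPM in MAEL KO. The other 24 genes were evaluated. On the FPKM scale, which takes gene length into account, 9 genes reached 1 FPKM in each library. In MAEL WT these were COL18A1, COL6A1, COL5A2, COL6A2, COL7A1, COL27A1, COL11A1, COL4A5 and COL26A1, from highest to lowest. In MAEL KO the order was COL18A1, COL5A2, COL6A1, COL26A1, COL27A1, COL7A1, COL5A3, COL6A2 and COL3A1. Each of the first 6 levels in MAEL WT, and each of the first 7 in MAEL KO, had a counting interval clear of the next one, whereas COL11A1, COL4A5 and COL26A1 in MAEL WT, and COL6A2 and COL3A1 in MAEL KO, had overlapping intervals.

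**Figure D2:**
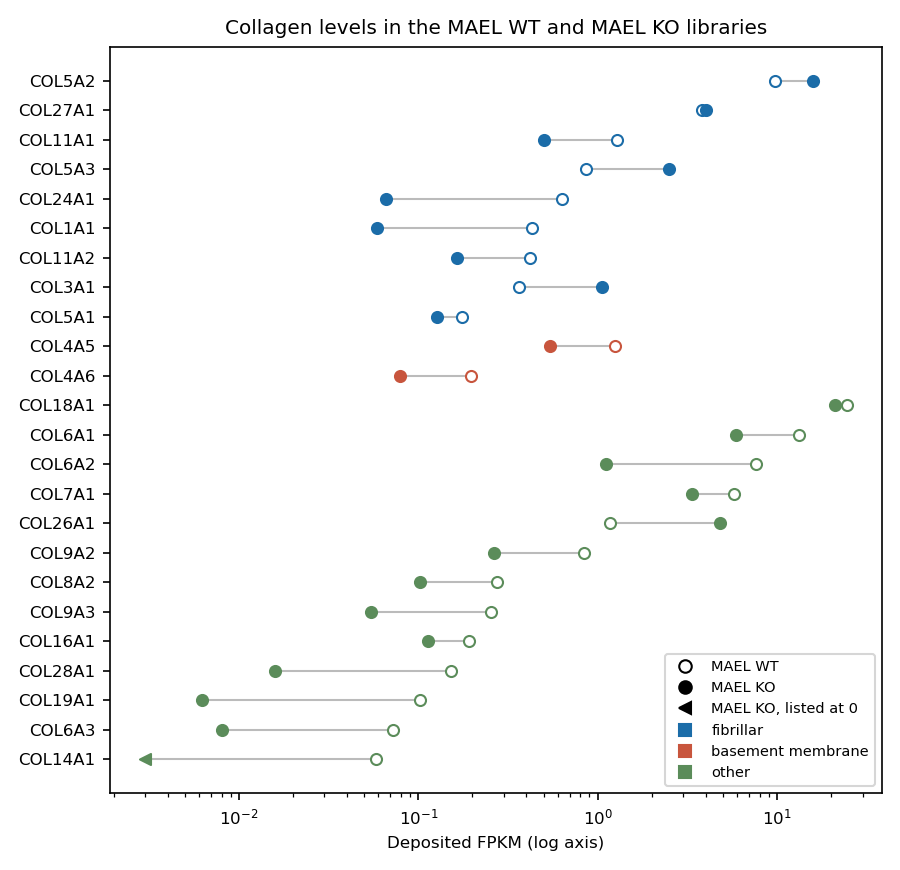
Deposited FPKM (log axis) of the 24 evaluated collagens, with open circles for MAEL WT, filled circles for MAEL KO and colours for the class. COL18A1 is the highest in both libraries at 24.5 and 21.1 FPKM, the circles of COL6A2 lie at 7.68 and 1.11 FPKM, and COL14A1 is listed at 0 in MAEL KO and drawn at the left edge.

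Of the 24 evaluated collagens, 8 were lower in MAEL KO past the threshold and 1 was higher. The 8 make up 33.3% of the members, where 5.64% of all evaluated genes were lower, and the single higher gene makes up 4.17%, where 2.16% of all genes were higher. The median log2 fold change was -1.28 for the collagens and -0.04 for all evaluated genes. Many of the lower members had few counts: in 4 of the 8 the MAEL KO library was at or under 3 counts, as it was in 51.2% of the 1008 lower genes overall. Among the 12 members with at least 100 counts in 1 library, 2 were lower and 1 was higher, where 2.35% and 1.54% of all such genes were, and the median was -0.49. At a log2 threshold of 1, 15 of the 24 members were lower and 3 were higher (62.5% and 12.5%, where the shares over all genes were 16.5% and 10.2%). The counting interval lay below 0 for 17 members, above 0 for 4 and across 0 for 3. Over all 17887 evaluated genes it lay below 0 for 6207, above 0 for 6220 and across 0 for 5460.

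**Figure D3:**
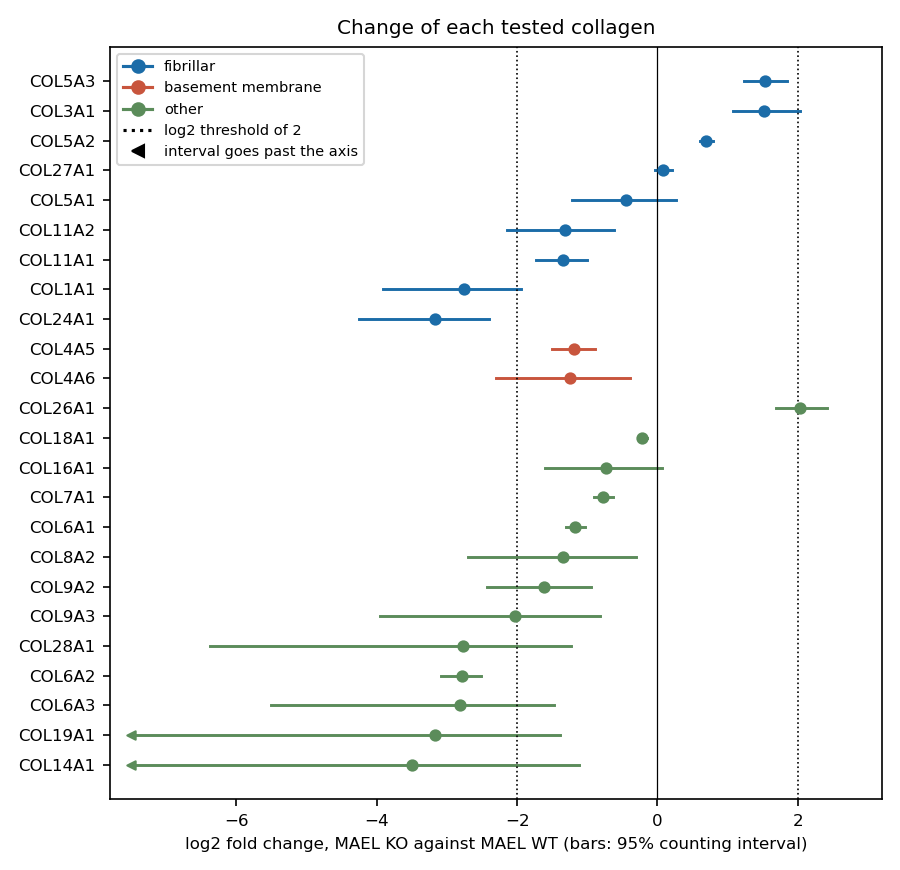
Log2 fold change between MAEL KO and MAEL WT (points) with 95% counting intervals (bars) for the 24 evaluated collagens, grouped by class, with dotted lines at the threshold of 2. COL24A1 and COL6A2 have intervals wholly beyond the lower threshold, ending at -2.41 and -2.51, and COL26A1 at 2.03 is the single gene past the upper one.

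**Figure D4:**
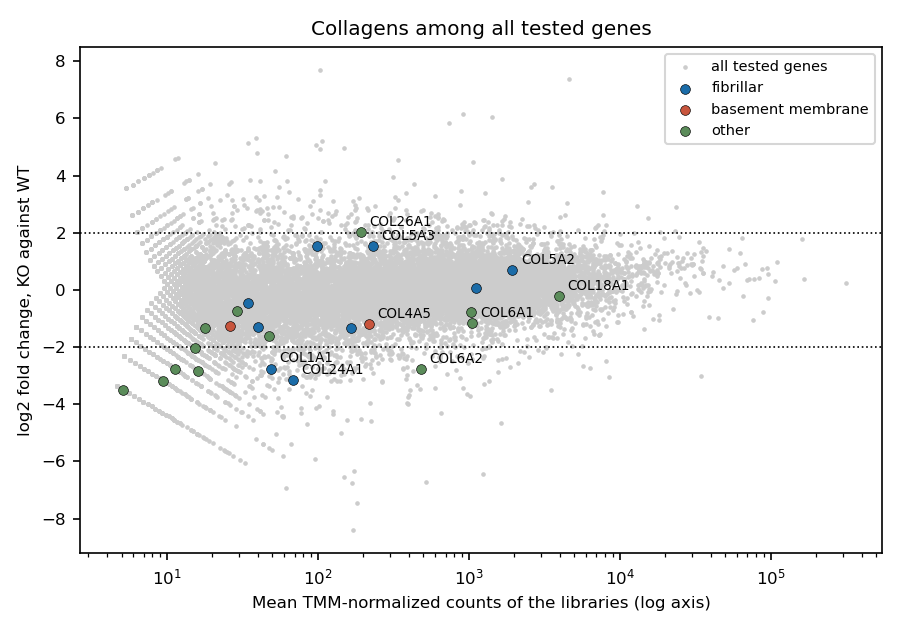
Log2 fold change against the mean TMM-normalized counts of the libraries (log axis) for all 17887 evaluated genes (grey) and the 24 collagens (coloured by class). COL18A1, COL5A2, COL6A1 and COL7A1 sit inside the grey band, while COL6A2 at -2.78 lies at its lower edge.

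The fibrillar collagens moved in opposite directions. Of 11 members, 9 were evaluated, of which 2 were lower (COL1A1 and COL24A1, 22.2%), none was higher past the threshold and 4 were above 0. Of all 17887 evaluated genes 5.64% were lower, 2.16% were higher and 8593 were above 0. The fibrillar median log2 fold change was -0.45, but it was 0.39 for the 6 members with at least 100 counts. The summed fibrillar counts took 0.0178% of MAEL WT counts and 0.0188% of MAEL KO counts, and COL5A2 gave 45.0% and 57.0% of those sums. In these shares of total counts, made without TMM scaling, MAEL KO was 1.06 times MAEL WT, and 0.828 times without COL5A2. With TMM scaling the summed counts had a log2 ratio of 0.36 (interval 0.29 to 0.42). A TMM-scaled sum without COL5A2 was not made, so the fall below 1 holds for total counts only.

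COL5A2, which encodes a chain of the type V collagen that sets fibril diameter, was the most abundant fibrillar gene. It had 1589 counts (9.75 FPKM) in MAEL WT and 2229 counts (15.8 FPKM) in MAEL KO (log2 fold change 0.70, interval 0.61 to 0.79). COL5A3, another type V chain, went from 127 to 319 counts (log2 fold change 1.53, interval 1.24 to 1.85). COL3A1, which encodes type III collagen and lies 19149 bases from COL5A2 on chromosome 2 in tail-to-tail orientation, went from 54 to 136 counts, at 1.52 (interval 1.08 to 2.03). All 3 lay above 0 and none passed the threshold. With total counts in place of TMM they were at 0.42 (COL5A2), 1.26 (COL5A3) and 1.25 (COL3A1). The remaining type V gene, COL5A1, had 43 and 27 counts and an interval that includes 0 (-1.21 to 0.27). Per length the ratio of COL5A1 to COL5A2 was 0.0180 in MAEL WT and 0.00807 in MAEL KO, and that of COL5A3 to COL5A2 was 0.0882 and 0.158. The change in the latter ratio, which needs no scaling between libraries, was 1.79 times (interval 1.44 to 2.24).

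COL27A1, a fibrillar chain of developing cartilage, had 1169 counts in MAEL WT and 1068 in MAEL KO (log2 fold change 0.08, interval -0.04 to 0.20), which was -0.20 with total counts. The sign of its difference therefore depends on the scaling, and its interval includes no change. COL24A1, the fibrillar gene nearest to it in coding structure (216 triplets in its longest run against 217), went from 133 to 12 counts. Its FPKM went from 0.635 to 0.0662, and its log2 fold change was -3.16 (interval -4.25 to -2.41). COL1A1, the major chain of type I collagen, went from 92 to 11 counts, at -2.75 (interval -3.91 to -1.95). COL1A2, which encodes the partner chain of type I collagen, had 1 count in each library, so that the ratio of COL1A1 to COL1A2 per length is known only within 18.3 to 4173 in MAEL WT and 1.82 to 538 in MAEL KO. The interval of the change in that ratio, 0.00151 to 10.2, includes 1.

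COL11A1 and COL11A2, whose chains join in the thin fibrils of cartilage, were both lower without passing the threshold. COL11A1 went from 255 to 86 counts (log2 fold change -1.35) and COL11A2 from 62 to 21 counts (-1.31). Their ratio per length was 3.05 in MAEL WT and 3.04 in MAEL KO, and the interval of the change in ratio was 0.559 to 1.83. COL2A1, the main collagen of cartilage, had 9 and 4 counts and was not evaluated.

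Among the basement membrane collagens, COL4A5 and COL4A6 alone had at least 10 counts in a library, and both were lower in MAEL KO. COL4A5 went from 323 counts (1.25 FPKM) to 122 (0.542 FPKM) (log2 fold change -1.19, interval -1.51 to -0.89). COL4A6 went from 40 counts (0.197 FPKM) to 14 (0.0796 FPKM) (log2 fold change -1.25, interval -2.30 to -0.40). Neither passed the threshold, and the ratio of the chains per length was 6.32 in MAEL WT and 6.82 in MAEL KO, with an interval of 0.551 to 2.23 for the change. COL4A1 and COL4A2, the chains of nearly all basement membranes, had 1 and 6 counts in MAEL WT and 5 and 4 in MAEL KO. COL4A3 had 1 count in each library, and COL4A4 had 3 and 4. The class took 0.00188% of MAEL WT counts and 0.00072% of MAEL KO counts, and COL4A5 gave 86.4% and 81.3% of these sums. The differences in the 4 low genes were not detectable at this depth.

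COL4A5 and COL4A6 lie head-to-head on chromosome X with 346 bases between the listed gene bodies, and 379 bases lie between the RefSeq starts. Their upstream sequences are shown because the genes face each other across them and both were lower. Windows are the bases before the RefSeq start that lie in no exon of GENCODE 29, read 5′ to 3′ on the strand of the gene (GRCh38.p14). Capitals mark matches, on either strand, to 3 motifs that did not overlap one another here. These were the CCAAT box, the TATA box read as TATAAA and the GC box read as GGGCGG.
COL4A5, chrX:108439588-108439837, plus strand: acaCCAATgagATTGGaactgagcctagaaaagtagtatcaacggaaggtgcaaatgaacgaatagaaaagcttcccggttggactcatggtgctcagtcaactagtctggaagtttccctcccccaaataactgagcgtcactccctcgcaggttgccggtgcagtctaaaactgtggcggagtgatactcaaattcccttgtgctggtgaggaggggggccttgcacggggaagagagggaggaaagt
COL4A6, chrX:108439498-108439708, minus strand: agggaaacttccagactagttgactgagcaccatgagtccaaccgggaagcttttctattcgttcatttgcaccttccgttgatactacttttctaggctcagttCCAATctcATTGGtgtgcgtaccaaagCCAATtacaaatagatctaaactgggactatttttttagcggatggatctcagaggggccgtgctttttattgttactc

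COL4A6 has a second, downstream RefSeq start, whose window is not shown. The windows printed share 121 bases, which hold the 2 CCAAT matches of the COL4A5 window, while the COL4A6 window has 3. Of the 44 RefSeq windows of 250 bases before a start that belong to 32 of the collagens, 27.3% hold CCAAT, 18.2% hold TATAAA and 54.5% hold GGGCGG. Over all 35116 such windows the shares were 32.0%, 10.7% and 42.6%. The match is of letters only.

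The other collagens carried most of the lower members. Of 27 genes 13 were evaluated, of which 6 were lower (46.2%), 1 was higher (7.69%) and 12 lay below 0. Of all 17887 evaluated genes 5.64% were lower, 2.16% were higher and 9294 lay below 0. Of the 6 lower genes, 4 had at most 3 counts in MAEL KO, namely COL14A1 (0), COL19A1 (1), COL28A1 (2) and COL6A3 (3). The class median log2 fold change was -1.62. It was -0.77 for the 5 members with at least 100 counts, of which 1 was lower and 1 higher. Together the other collagens took 0.0441% of MAEL WT counts and 0.0249% of MAEL KO counts. The MAEL KO share of total counts was 0.565 times the MAEL WT share, or 0.407 times without COL18A1. With TMM scaling their summed counts had a log2 ratio of -0.55 (interval -0.60 to -0.50).

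COL18A1, a multiplexin of basement membrane zones and the source of endostatin, had 4572 counts (24.5 FPKM) in MAEL WT and 3404 (21.1 FPKM) in MAEL KO. Its log2 fold change was -0.22 (interval -0.28 to -0.15), and it was the highest collagen of both libraries. Exons of SLC19A1 overlap 16.4% of its exonic bases, and since the strand setting of the count is not stated, reads there could not be assigned with certainty. COL7A1, which builds the anchoring fibrils of epithelia, went from 1389 to 703 counts, at -0.77 (interval -0.91 to -0.64).

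All 3 evaluated chains of type VI collagen, which forms beaded filaments around cells, were lower in MAEL KO, 2 of them past the threshold. COL6A1 went from 1553 counts (13.3 FPKM) to 597 (5.89 FPKM) (log2 fold change -1.17, interval -1.31 to -1.03). COL6A2 went from 905 counts (7.68 FPKM) to 113 (1.11 FPKM) (log2 fold change -2.78, interval -3.09 to -2.51). COL6A3, the long chain of the trimer, went from 31 to 3 counts, a ratio of 8.93 to 1 between the normalized counts (log2 interval -5.51 to -1.48). The MAEL KO count of COL6A3 is at the 3-count floor, so the size of this ratio is uncertain. Summed over the type, counts went from 2489 to 715, a log2 ratio of -1.59 (interval -1.71 to -1.47).

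The drop was unequal between the chains. Per length there were 1.73 COL6A1 for each COL6A2 in MAEL WT (interval 1.59 to 1.88) and 5.33 in MAEL KO (interval 4.35 to 6.57). The ratio changed 3.08 times (interval 2.47 to 3.86), a value that no scaling between the libraries affects. COL6A2 exceeded COL6A3 106 times per length in MAEL WT and 137 times in MAEL KO, and the interval of that change (0.393 to 6.70) includes 1. COL6A1 and COL6A2 stand in tandem on chromosome 21 with 93046 bases between them. The 22 evaluated genes within 1 Mb of COL6A2 that are not collagens had a median log2 fold change of -0.32, and 1 of them was lower past the threshold. The COL6A2 upstream sequence is given as that of the member furthest below 0 among those with at least 100 counts in both libraries, with the same marking of motif matches.
COL6A2, chr21:46097862-46098096, plus strand: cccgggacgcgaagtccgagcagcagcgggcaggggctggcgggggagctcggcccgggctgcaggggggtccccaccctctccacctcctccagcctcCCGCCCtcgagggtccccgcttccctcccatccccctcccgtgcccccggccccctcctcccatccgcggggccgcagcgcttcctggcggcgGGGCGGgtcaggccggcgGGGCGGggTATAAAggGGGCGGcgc
It holds 4 matches to GGGCGG and 1 to TATAAA in 235 bases, of which 79.6% are G or C.

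COL26A1, a short secreted collagen-like protein of testis and ovary, was the gene that passed the threshold upwards. It had 81 counts (1.17 FPKM) in MAEL WT and 289 (4.83 FPKM) in MAEL KO (log2 fold change 2.03, interval 1.69 to 2.42). It stands at the threshold, since it was at 1.76 with total counts and at 1.98 with 5 added to the normalized counts. Just past the lower threshold was COL9A3 at -2.03, and the next member, COL1A1, was well past it at -2.75. The nearest member short of the lower threshold was COL9A2 at -1.62. Of the 53 other evaluated genes within 1 Mb of COL26A1 none was higher past the threshold, and their median was -0.02. Its upstream window stops 55 bases before the RefSeq start and holds none of the 3 motifs. The bases nearer the start lie in an exon and are not part of this window.
COL26A1, chr7:101362625-101362819, plus strand: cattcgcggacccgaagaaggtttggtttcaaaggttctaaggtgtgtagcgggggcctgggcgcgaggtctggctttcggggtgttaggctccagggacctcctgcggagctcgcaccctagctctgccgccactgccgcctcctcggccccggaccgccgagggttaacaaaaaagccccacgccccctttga

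The fibril-associated collagens, which attach to the surface of fibrils, had 5 evaluated members of 10, and all 5 were below 0. COL9A2 went from 77 to 21 counts (log2 fold change -1.62, interval -2.44 to -0.95). COL9A3 went from 27 to 5 counts, at -2.03 (interval -3.96 to -0.83), and their ratio per length of 3.27 in MAEL WT and 4.82 in MAEL KO did not differ beyond counting error. COL19A1 went from 19 to 1 count, a ratio of 16.4 to 1 between the normalized counts (log2 interval -9.41 to -1.38). The MAEL KO count of COL19A1 is under the 3-count floor, so this ratio is not a measured fold. COL14A1 went from 11 to 0 counts, at least 3.17-fold lower against the 3-count floor of the library (interval limit -1.12), which is short of the threshold. COL16A1 had 39 and 20 counts, with an interval that includes 0. With COL14A1 at its bound, 7 collagens were lower past the threshold. The median was -1.28 either way, because that bound also lies below it.

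Of the remaining types, COL28A1 went from 22 to 2 counts (log2 interval -6.38 to -1.23), with MAEL KO under the 3-count floor. The network-forming COL8A2 went from 28 to 9 counts, at -1.34 (interval -2.70 to -0.30). No transmembrane collagen was evaluated: COL17A1, of the hemidesmosome, had 6 and 8 counts, and the other 3 had none. COL10A1, COL12A1, COL15A1, COL21A1 and COL9A1 had 0 to 8 counts in each library.

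The genes that make, export, cross-link, bind and cut collagen were followed on 8 lists holding 81 genes, of which 63 were evaluated. Of these, 13 were lower (20.6%) and 2 were higher (3.17%), where the shares over all evaluated genes were again 5.64% and 2.16%, and the median was -0.57. Genes on both sides had a library under the 3-count floor, such as ASPN among the higher and LAMC3 among the lower, with 1 count each there. The lower genes lay mostly on 2 lists, the basement membrane partners with 6 of 13 and the collagen receptors with 4 of 10.

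**Figure D5:**
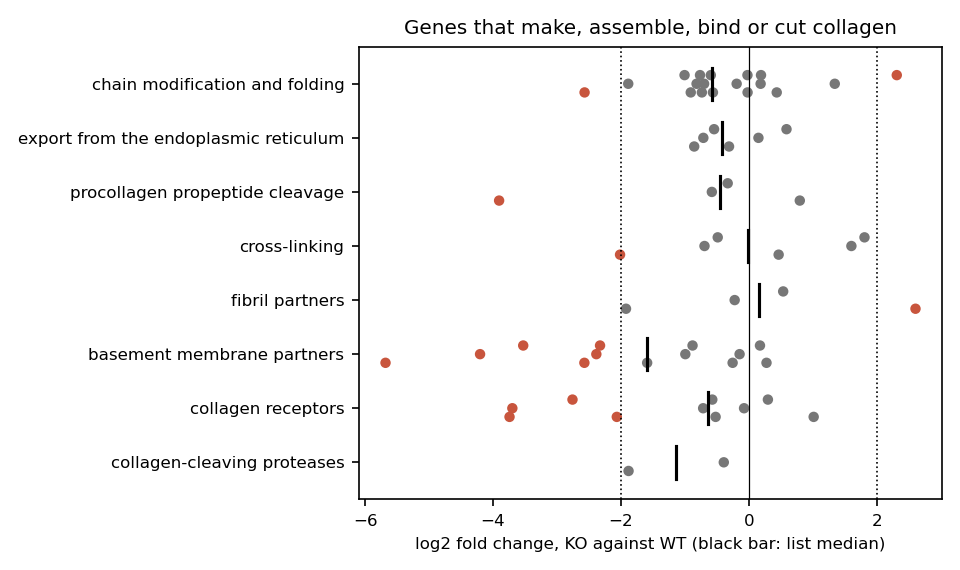
Log2 fold change between MAEL KO and MAEL WT for each evaluated gene on the 8 lists, with the list median as a black bar, dotted lines at the threshold of 2 and genes past it in red. Of the 15 red points, 10 stand in the rows of basement membrane partners and collagen receptors.

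Of the 18 enzymes and chaperones that modify and fold collagen chains all were evaluated, with 1 lower, 1 higher and a median of -0.58. Their levels reached down to P4HA3, with 15 and 6 counts. PPIB, a proline isomerase and the most abundant of them, was at 248 and 281 FPKM, a log2 fold change of 0.19. PLOD2, which hydroxylates telopeptide lysines for stable cross-links, went from 323 to 1394 counts (log2 fold change 2.32, interval 2.14 to 2.50). P3H3, of the prolyl 3-hydroxylase family, went from 458 to 66 counts, at -2.57 (interval -2.98 to -2.21). SERPINH1, the collagen chaperone HSP47, was at -0.82 (interval -0.94 to -0.70), and P4HA1, a catalytic subunit of prolyl 4-hydroxylase, was at 1.35 (interval 1.26 to 1.44), so that members of this machinery stood on either side of 0. These last 2 were chosen after their values were seen.

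None of the 6 genes of collagen export from the endoplasmic reticulum passed the threshold. SEC23A, the highest of them, was at 20.3 and 30.5 FPKM. Of the propeptide cleavage genes 4 of 8 were evaluated, and ADAMTS2, the procollagen N-proteinase, went from 15 to 0 counts, at least 4.32-fold lower against 3 counts (interval limit -1.63). BMP1, the C-proteinase, went from 708 to 410 counts, at -0.58. Among the cross-linking enzymes LOXL4 was lower, going from 1600 to 342 counts (-2.01, interval -2.19 to -1.85). TGM2, which had the highest mean FPKM of this list but was below LOXL4 in MAEL WT (15.8 against 20.0 FPKM), went from 2786 to 8453 counts, at 1.81 (interval 1.75 to 1.87). LOX, also chosen after its value was seen, went from 168 to 444 counts, at 1.61.

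Of the 9 fibril partners 4 were evaluated. FN1, which encodes fibronectin, was at 200 and 171 FPKM. TNXB, which encodes a tenascin and was chosen after its value was seen, went from 165 to 37 counts, at -1.92 (interval -2.50 to -1.43). ASPN, the second higher gene of the lists, had 1 and 10 counts (log2 interval 0.72 to 8.97). Its MAEL WT count is under the 3-count floor and its interval reaches below the threshold, so its place past the threshold is not secure. DCN and LUM, which are also on the fibroblast list, had 3 counts each in MAEL WT and 0 in MAEL KO.

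The basement membrane partners had the lowest median of the lists with more than 2 evaluated genes, at -1.59 over 13 genes. LAMC3, which encodes a laminin chain, went from 40 to 1 count (log2 interval -10.4 to -2.55) and LAMA1 from 38 to 2 (-7.13 to -2.08). HSPG2, which encodes perlecan and was chosen after its value was seen, went from 3883 to 564 counts, at -2.57 (interval -2.70 to -2.44). AGRN, which encodes agrin and had the highest mean FPKM of the list, was at 57.4 and 64.7 FPKM, a log2 fold change of 0.18. LAMB1, a laminin chain that was above AGRN in MAEL WT, was at 65.5 and 21.7 FPKM (log2 fold change -1.59).

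Of the collagen receptors, ITGA10, the integrin chain of chondrocytes, went from 230 to 14 counts, at -3.74 (interval -4.72 to -3.05). OSCAR, an immune-type receptor that binds collagen, went from 178 to 11 counts, at -3.70 (interval -4.83 to -2.93). MRC2, an endocytic collagen receptor, had 14 and 1 counts. ITGB1, the shared beta chain and the most abundant receptor gene, went from 138 to 92.9 FPKM, at -0.57. Among the proteases that cut collagen, MMP14 went from 548 to 128 counts, at -1.88 (interval -2.18 to -1.61), CTSK had 114 and 75 counts, and the 5 others had fewer than 10 counts in each library.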

How the data were processed

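Raw read counts for each gene, as whole numbers, and FPKM for the same genes were deposited by the authors. The deposited FPKM equal counts over listed gene length and over a library size rescaled between the libraries (1.10 and 0.91 times the total counts). The submitters' processing notes name HISAT2 2.0.5, featureCounts 1.5.0-p3 and hg19, while all 44 collagen coordinates match GENCODE 29 on GRCh38. The read strand is not given in the sources used here.

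Counts were scaled by TMM in edgeR 4.0.16 (R 4.3.3), with DESeq2 1.42.0 size factors, total counts, deposited FPKM with 0.01 added, 0.1 or 5 added counts, other count filters and a log2 threshold of 1 as alternatives to the threshold of 2, which follows the study's methods. Folds and exact intervals came from SciPy 1.17.1, NumPy 2.4.6 and pandas 2.3.3 (Python 3.11.15), and matplotlib 3.10.9 drew the plots. Steps were tested on simulated data. No molecular identifiers are named in the sources used here, and reads may be PCR copies, so intervals and floors cover counting error only. Changes in chain ratios carry the exact conditional interval of the odds ratio of the 4 counts.

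Each library is 1 sample of its group. Members and lists were chosen with earlier results of these data known. Named genes are every member, and on each list up to 3 genes past the threshold in each direction and the gene with the highest mean FPKM, with exceptions marked and 1 gene not reported here. Promoter sequences are from RefSeq (GRCh38.p14) and coding exons from GENCODE 29. No RefSeq window was at hand for COL14A1, COL1A1, COL1A2, COL20A1, COL22A1, COL2A1, COL3A1, COL5A2, COL6A1, COL6A5, COL8A1 and COL9A3.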

Additional observations from a re-analysis of the deposited data

How the results depend on the processing

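The counts of 8 lower and 1 higher collagens were the same with DESeq2 size factors, the FPKM ratio and 0.1 added. The FPKM ratio is no separate check, since the deposited FPKM rescale the same counts between the libraries as the DESeq2 size factors do. Apart from the 0.01 added it repeats that setting, and both gave a median of -0.042 over all evaluated genes. They were 8 and 0 with total counts, 4 and 0 with 5 added, 2 and 1 for at least 100 counts, 10 and 2 without a count filter and 15 and 3 at a log2 threshold of 1. Higher genes were 11.1% of those past the threshold, and 0% with total counts, a scaling that moved the median of all evaluated genes from -0.04 to -0.31. The fibrillar median of -0.45 became 0.39 for at least 100 counts. The median of COL4A5 and COL4A6 was -1.22, and it was -1.49 with total counts, -1.12 with 5 added, -1.19 for at least 100 counts (COL4A5 alone) and -0.10 without a filter, which adds the 4 low type IV genes. Without the most abundant member, the ratio of MAEL KO to MAEL WT shares of total counts went from 1.06 to 0.828 for fibrillar collagens. It went from 0.383 to 0.524 for type IV and from 0.565 to 0.407 for other collagens. For the lists, settings added after the data were seen gave a median of -0.85 with total counts, and 6 lower and 1 higher genes for at least 100 counts. Of 120 values of the 24 members under other settings, 115 stayed within the counting interval, 4 moved outside it and COL27A1 changed sign, to -0.20, all 5 with total counts. The FPKM values among the 120 largely repeat the DESeq2 ones. Members with few counts have wide intervals, so staying within them says little about how stable a value is. COL14A1 was at -6.69 with 0.1 added and at -1.61 with 5 added, and both values lay within its interval. Beyond the construction of the filters, thresholds and scalings, the cause was not tested. Neither library could be left out. No paired analysis was possible because each group has 1 library.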

Other observations

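Collagen pseudogenes and antisense transcripts, which the rule leaves out, had at most 10 counts in either library. The pseudogene COL6A4P1 had 7 and 9 counts, and the antisense transcript COL18A1-AS1 had 6 in MAEL WT and 10 in MAEL KO, beside 4572 and 3404 for COL18A1. Without the strand setting of the count, reads from a gene and its antisense partner cannot be told apart. COL4A3BP, which encodes a ceramide transfer protein and no collagen, had 675 and 608 counts. Of 5 endothelial markers, PECAM1 had 348 and 392 counts and the rest had at most 15. The 5 leukocyte markers summed to 14 and 13 counts. Among 5 epithelial markers, KRT8 went from 81.4 to 179 FPKM, while EPCAM had 15 and 0 counts and KRT19 had 13 and 1.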
